A study of Homo sapiens with 8 samples.

Results

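The 8 long non-coding RNAs (lncRNAs) described here are MALAT1, NEAT1, KCNQ1OT1, MIAT, TUG1, PVT1, OIP5-AS1 and NORAD. They were named as a list of abundant lncRNAs, mostly nuclear, with NORAD as a cytosolic contrast. They were found by symbol among the 63140 genes of the count table. All 8 were present and all 8 passed the filter on low counts that left 24057 genes for testing. The libraries came from ChIRP (chromatin isolation by RNA purification), in which biotinylated DNA probes are hybridised to cross-linked, sonicated lysate and pulled down on streptavidin beads. The RNA to which the probes bind is not given in the sources used here, and no input library was used, so every level below is an amount in a pull-down and not an enrichment.

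The cells were human acute myeloid leukaemia lines, labelled MOLM13 and OCI-AML4, 3 days after editing. The 8 libraries form 4 groups of 2, with replicate 1 of every group labelled MOLM13 and replicate 2 labelled OCI-AML4. AAVS1 KO cells had received Cas9 ribonucleoprotein with a guide to AAVS1, the control site of the series, and HOTSCRAMBL KO cells the same nuclease with guides to the lncRNA HOTSCRAMBL. AAVS1 CBE and HOTSCRAMBL CBE cells had received a cytosine base editor, which turns C into T without cutting both strands, with guides to the same targets. All groups share nucleofection, the growth media with serum, and glutaraldehyde fixation. Whether edited cells were kept as pools or clones is not given in the sources used here, and the level of HOTSCRAMBL itself is not analysed here.

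Total counts ran from 20548300 to 37970163 per library, and 21945 to 26083 genes were detected. Myeloid markers were present: 9 of 10 had a count of at least 10 in every library, the exception being CD34 with 0 to 38, and they summed to 0.117% to 0.169% of counts. None of 10 markers of erythroid, lymphoid, fibroblast and epithelial cells reached 10 counts in every library, CD3E and HBB were at 0 in all 8, and the list summed to at most 0.000452%. Mitochondrially encoded genes took 6.77% to 7.23% of counts in the 4 AAVS1 libraries and 10.2% to 11.9% in the 4 HOTSCRAMBL libraries. Ribosomal protein genes took 1.32% to 1.59% and 3.2% to 4.46%. Both shares therefore moved with the guide target. No library of known line was at hand to check the line labels. Between them 119 of 24057 genes differed, against 2108 for HOTSCRAMBL KO over AAVS1 KO. Whether the libraries stem from 2 distinct lines was not tested.

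LncRNAs are transcripts without a long open reading frame, and several of them act as scaffolds of nuclear bodies. NEAT1 is the architectural RNA of paraspeckles, bodies built around proteins such as NONO, SFPQ and PSPC1, while MALAT1 collects in nuclear speckles, which hold splicing factors. Both are transcribed from neighbouring genes on chromosome 11. MALAT1 and the long form of NEAT1 are cut at the 3′ end by RNase P rather than polyadenylated. Both of these ends are protected by a triple helix of U-rich stretches and an A-rich tract. The counts are per gene and do not separate forms of NEAT1. NORAD lies mainly in the cytoplasm, where it binds Pumilio proteins. KCNQ1OT1 silences an imprinted cluster in cis, PVT1 lies downstream of MYC, and OIP5-AS1, MIAT and TUG1 are further conserved or widely expressed lncRNAs.

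The 3′ ends of MALAT1 and NEAT1 are shown first because they are what these neighbouring RNAs share. Both come from GENCODE v29 transcripts on GRCh38, plus strand, the first at chr11:65506005-65506116 (MALAT1-202) and the second at chr11:65445429-65445540 (NEAT1-202). Capitals mark the U-rich stretches TTTCTTTT and TTTGCTTTT and an A-rich tract, which both ends hold in the same order.
MALAT1 3′ end: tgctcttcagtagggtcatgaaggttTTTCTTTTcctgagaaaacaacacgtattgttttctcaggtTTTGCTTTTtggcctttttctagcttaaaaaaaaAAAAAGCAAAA
NEAT1 3′ end: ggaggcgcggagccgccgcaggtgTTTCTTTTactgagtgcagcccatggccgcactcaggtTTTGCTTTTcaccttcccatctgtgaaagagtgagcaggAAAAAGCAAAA

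How much of each lncRNA could be counted depended on other genes with overlapping exons, on either strand. Reads were counted without strand, and a read lying over exons of 2 genes was not counted. MALAT1 (ENSG00000251562, GRCh38 chromosome 11, 65497640 to 65508073, plus strand) is a single exon block of 10434 bases. The antisense gene TALAM1 (ENSG00000289740) covers 8121 of them and ENSG00000270117 another 610, so 83.7% of the exon bases are shared. TALAM1 had 0 counts in all 8 libraries. Reads over the bases it shares with MALAT1 were counted for neither gene, so this does not show that TALAM1 RNA was absent. The remaining 1703 bases (16.3%) lie in 3 stretches of 368, 694 and 641 bases, from 65497640 to 65498007, from 65498618 to 65499311 and from 65507433 to 65508073. The last of these begins past 65506516, where the longest-reaching GENCODE v29 transcript of MALAT1 ends, and the 3′ end printed above holds 0 bases that belong to MALAT1 alone. Most of the bases that could be counted for MALAT1 therefore lie in the 5′ part of the gene.

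**Figure D1:**
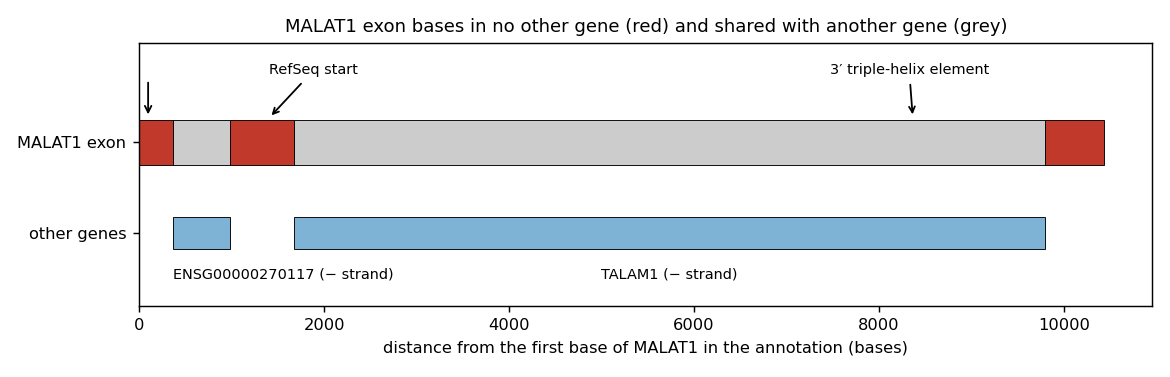
Exon bases of MALAT1 by distance in bases from the first annotated base, with the antisense genes that share them drawn below. Red stretches (368, 694 and 641 bases) belong to MALAT1 alone, grey ones (610 and 8121 bases) are shared; arrows mark the 2 RefSeq start sites and the 3′ triple-helix element, which lies in the long grey stretch.

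Of the 3 stretches, 2 lie at the start sites that RefSeq gives for MALAT1, at 65497738 and 65499045. These 2 stretches hold most of the MALAT1-only bases, so a window around each start is shown. The windows themselves hold only 148 and 300 of those bases. Both windows reach from 250 bases before a start to 50 after it (RefSeq, GRCh38, plus strand), at chr11:65497488-65497787 and chr11:65498795-65499094. In the upstream window capitals mark the 148 bases inside the annotated gene, all of them MALAT1-only. In the downstream window, of which all 300 bases are MALAT1-only, capitals mark the single TATAAA.
MALAT1 upstream start: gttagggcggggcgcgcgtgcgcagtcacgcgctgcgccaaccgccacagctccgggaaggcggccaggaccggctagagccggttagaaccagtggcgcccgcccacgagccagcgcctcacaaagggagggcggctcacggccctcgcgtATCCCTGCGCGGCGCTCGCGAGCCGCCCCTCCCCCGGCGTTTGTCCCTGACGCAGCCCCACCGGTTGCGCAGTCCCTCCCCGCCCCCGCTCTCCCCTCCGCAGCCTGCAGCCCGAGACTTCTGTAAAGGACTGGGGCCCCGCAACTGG
MALAT1 downstream start: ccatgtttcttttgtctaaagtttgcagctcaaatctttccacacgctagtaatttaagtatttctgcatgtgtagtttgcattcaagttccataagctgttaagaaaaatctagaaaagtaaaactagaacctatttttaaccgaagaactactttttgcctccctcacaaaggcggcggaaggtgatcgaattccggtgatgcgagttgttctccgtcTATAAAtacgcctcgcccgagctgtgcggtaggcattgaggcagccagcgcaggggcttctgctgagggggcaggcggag

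The TATAAA begins 30 bases before the downstream start (position -30). Searched on both strands, TATAAA was in 11.6% of 34796 RefSeq windows of the same length, and the upstream window has none. GGGCGG, found in 44.9% of windows, is in the upstream window only. CCAAT, found in 34.6%, is in neither. After the downstream start, 267 bases of MALAT1 remain before the long shared stretch begins. The promoter table held 5 of the 8 lncRNAs (MALAT1, MIAT, TUG1, OIP5-AS1 and NORAD).

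NORAD is set apart from the other lncRNAs of the set by repeats of the Pumilio motif, TGTANATA on the RNA strand. In NORAD-201 (GENCODE v29, 5339 bases) a search found 15 matches. That is 2.81 per kb, against a median of 0.11 per kb over 5249 genes whose longest transcript has at least 5000 bases, and 99.96% of these genes had a lower rate. NEAT1 had 6 matches (0.264 per kb), TUG1 had 2 (0.268 per kb), KCNQ1OT1 had 9 in its far longer transcript (0.0982 per kb), OIP5-AS1 had 1 (0.113 per kb), and MALAT1, MIAT and PVT1 had 0. The examples were chosen because they show the spellings found with T, A and C in the open position, and matches 4 and 5 lie side by side. All are on the minus strand of chromosome 20 (GRCh38) and capitals mark the motif.
NORAD match 1, chr20:36050184-36050209: gaaggcctgTGTATATAatatgaaaa
NORAD match 3, chr20:36049704-36049729: atcacatttTGTAAATAcctttttgt
NORAD match 4, chr20:36049503-36049528: acttatctgTGTATATAgtgtacata
NORAD match 5, chr20:36049494-36049519: tgtatatagTGTACATAaaggacaga

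Levels are given as CPM, the count as a share of the library total after TMM scaling, which offsets differences in composition. By mean CPM NEAT1 ranked 43 among 24057 tested genes, MALAT1 102 and PVT1 126. TUG1 ranked 1060, OIP5-AS1 1143, NORAD 1195 and KCNQ1OT1 1603. MIAT, at rank 13954, was scarce, with 10 to 163 counts in a library.

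Compared per kb of exon bases that belong to no other gene, the order changed. MALAT1 stood at a median of 442 CPM per kb over the 8 libraries (380 to 730) and NEAT1 at 63.5 (54.9 to 72.2), and the ranges do not overlap. Divided by all exon bases MALAT1 fell to a median of 72.1 CPM per kb and NEAT1 to 62.1, so the distance between them rests on the overlap with TALAM1. PVT1 followed at 28.8 (22.4 to 33.7) and NORAD at 27.7 (21.6 to 40.5), which overlap each other, and TUG1 at 18.5 (14.7 to 27.1) overlaps both. OIP5-AS1 at 7.74 (6.08 to 8.87), KCNQ1OT1 at 1.38 (0.918 to 1.64) and MIAT at 0.192 (0.0311 to 0.352) were each below the range of the lncRNA before.

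All other lncRNAs of the set lost less to overlap than MALAT1. NEAT1 (ENSG00000245532, chromosome 11, 65422774 to 65445540, plus strand) has 22767 exon bases, of which 2.13% are shared. NORAD (ENSG00000260032, chromosome 20, 36045618 to 36051018, minus strand) has 5401 exon bases and shares 0. KCNQ1OT1 (ENSG00000269821, chromosome 11, 2597308 to 2700003, minus strand) has 92625 exon bases and shares 1.21%, but it lies inside KCNQ1 on the opposite strand, so intronic reads of KCNQ1 cannot be told apart from it. PVT1 (ENSG00000249859, chromosome 8, 127794526 to 128187101, plus strand) has 59 separate exon blocks of 25431 bases in all and shares 3.02%. TUG1 (ENSG00000253352, chromosome 22, 30969245 to 30979395, plus strand) shares 14.4% of 10151 exon bases and MIAT (ENSG00000225783, chromosome 22, 26646411 to 26676475, plus strand) 19.2% of 15892. OIP5-AS1 (ENSG00000247556, chromosome 15, 41283958 to 41322392, plus strand) shares 6.56% of 22370 exon bases, 759 of them with OIP5 and 195 with NUSAP1.

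**Figure D2:**
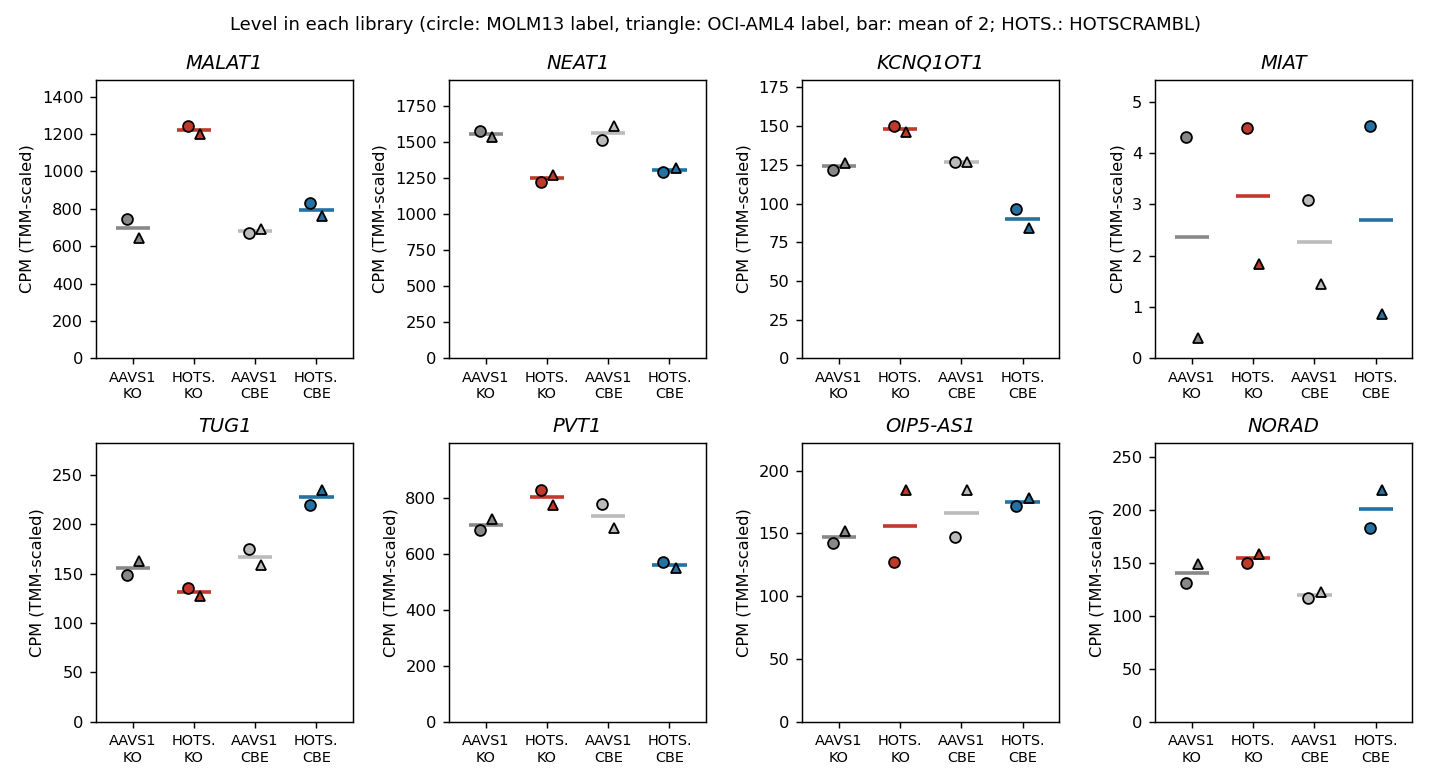
TMM-scaled CPM of each lncRNA in every library, by group (HOTS. is HOTSCRAMBL), with circles for the MOLM13 label, triangles for the OCI-AML4 label and a bar at the mean of 2. Both MALAT1 points of HOTSCRAMBL KO lie near 1220.4 CPM, above all others, and both NEAT1 points of each HOTSCRAMBL group lie below the AAVS1 points; each vertical axis starts at 0.

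Knockout with Cas9 asked how targeting HOTSCRAMBL changed recovery against AAVS1 KO. MALAT1 was higher and NEAT1 lower in HOTSCRAMBL KO, and the other 6 lncRNAs did not pass the threshold. Thus 2 of 8 were called, at an edgeR Benjamini-Hochberg adjusted p below 0.05, where 8.76% of all tested genes were (4.51% higher and 4.25% lower). Here and below, such shares cover tested genes of every level. The share among genes as abundant as these lncRNAs, of which only MIAT was scarce, was not computed. The median log2 fold change of the 8 was 0.16, and that of all tested genes -0.01.

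MALAT1, the RNA of nuclear speckles, stood at 745 and 646 CPM in the AAVS1 KO libraries (replicates 1 and 2) and at 1242.4 and 1198.4 CPM in the HOTSCRAMBL KO libraries. Like all MALAT1 levels here, these come only from the 1703 MALAT1-only bases, of which 641 lie past the last GENCODE v29 transcript. The 8121 bases shared with TALAM1, most of the gene, were not counted. Both HOTSCRAMBL KO values exceeded every other library, and the groups do not overlap. The means were 696 ± 70.1 and 1220.4 ± 31.1 CPM (SD, n = 2), which is 0.81 on the log2 scale (standard error 0.0889, adjusted p 2.46e-07 in edgeR), 0.74 and 0.89 within the replicate pairs. This call held in 18 of 18 alternative settings, with values from 0.65 to 0.90. With mitochondrial and ribosomal protein genes taken out of the library sizes it was 0.83.

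NEAT1, the paraspeckle scaffold, went the other way. It stood at 1574.6 and 1536.6 CPM in AAVS1 KO and 1223.5 and 1272.6 CPM in HOTSCRAMBL KO, again without overlap. The means of 1555.6 ± 26.9 and 1248.0 ± 34.7 CPM (SD, n = 2) gave a log2 fold change of -0.32 (standard error 0.0788, adjusted p 0.00856 in edgeR). The call was lost when any of the 4 KO libraries was left out (edgeR adjusted p from 0.0677 to 0.29), in a fit of those 4 libraries alone (0.0706) and without the line term, that is, without the pairing of replicates (0.0773).

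The other lncRNAs had log2 fold changes with KO between -0.25 for TUG1 (edgeR adjusted p 0.336) and 0.44 for MIAT (0.818). KCNQ1OT1 had 122 and 126 CPM in AAVS1 KO and 150 and 146 CPM in HOTSCRAMBL KO, which do not overlap, with a log2 fold change of 0.25 that missed the threshold (standard error 0.145, adjusted p 0.349 in edgeR). PVT1 had 686 and 726 CPM against 832 and 777 CPM, a difference of 0.19 (standard error 0.0919, adjusted p 0.256 in edgeR), which DESeq2 called (0.21, adjusted p 0.0496). For NORAD, 131 and 149 CPM stood against 150 and 158 CPM, with a log2 fold change of 0.14 (standard error 0.138, adjusted p 0.647 in edgeR) that became -0.02 without TMM.

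Base editing gave a different set. Against AAVS1 CBE, NORAD and TUG1 rose and PVT1, KCNQ1OT1 and NEAT1 fell, while MALAT1, MIAT and OIP5-AS1 did not pass. These are 5 of 8, where 8.83% of all tested genes were called (4.56% higher and 4.27% lower). The 8 had a median log2 fold change of 0.15, and all tested genes -0.02.

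NORAD, the cytosolic lncRNA, stood at 117 and 122 CPM in AAVS1 CBE and at 183 and 219 CPM in HOTSCRAMBL CBE, the highest values of all 8 libraries. From a mean of 119 ± 3.53 to 201 ± 25.4 CPM (SD, n = 2) the log2 fold change was 0.74 (standard error 0.129, adjusted p 0.000251 in edgeR), and it was called in 18 of 18 alternatives, at 0.60 to 0.82. A larger share of cells with NORAD and more NORAD per cell cannot be told apart in such bulk libraries.

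TUG1, a conserved lncRNA, had 175 and 159 CPM in AAVS1 CBE and 219 and 235 CPM in HOTSCRAMBL CBE. Its log2 fold change of 0.44 (standard error 0.124, adjusted p 0.0219 in edgeR) was called in 9 of 18 alternatives. The call ended without TMM (0.31, edgeR adjusted p 0.145), without the replicate pairing (0.0709), and without any single library of the CBE contrast or of AAVS1 KO.

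PVT1, the MYC neighbour, had 780 and 694 CPM in AAVS1 CBE and 572 and 552 CPM in HOTSCRAMBL CBE, the lowest pair of all groups. The log2 fold change was -0.39 (standard error 0.0913, adjusted p 0.00543 in edgeR), called in 14 of 18 alternatives. It was lost without AAVS1 CBE replicate 1 (-0.32, edgeR adjusted p 0.226) and without either HOTSCRAMBL CBE library (0.12 and 0.0631), and in the fit of 4 libraries (0.0839).

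KCNQ1OT1, the antisense RNA of the imprinted cluster, had 127 and 127 CPM in AAVS1 CBE and 96.5 and 84 CPM in HOTSCRAMBL CBE. It fell by 0.49 on the log2 scale (standard error 0.143, adjusted p 0.0295 in edgeR), a call kept in 10 of 18 alternatives and lost without the replicate pairing (edgeR adjusted p 0.0739) and without any library of the CBE contrast or of AAVS1 KO. NEAT1 had 1513.2 and 1609.6 CPM against 1295.0 and 1316.6 CPM, a log2 fold change of -0.26 (standard error 0.0779, adjusted p 0.0356 in edgeR). Its call was likewise kept in 10 of 18 alternatives and lost without the pairing (0.176). MALAT1 had 672 and 690 CPM against 829 and 760 CPM, which do not overlap, and its log2 fold change of 0.22 missed the threshold (standard error 0.0882, adjusted p 0.136 in edgeR). Limma-voom called it (0.24, adjusted p 0.00184).

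**Figure D3:**
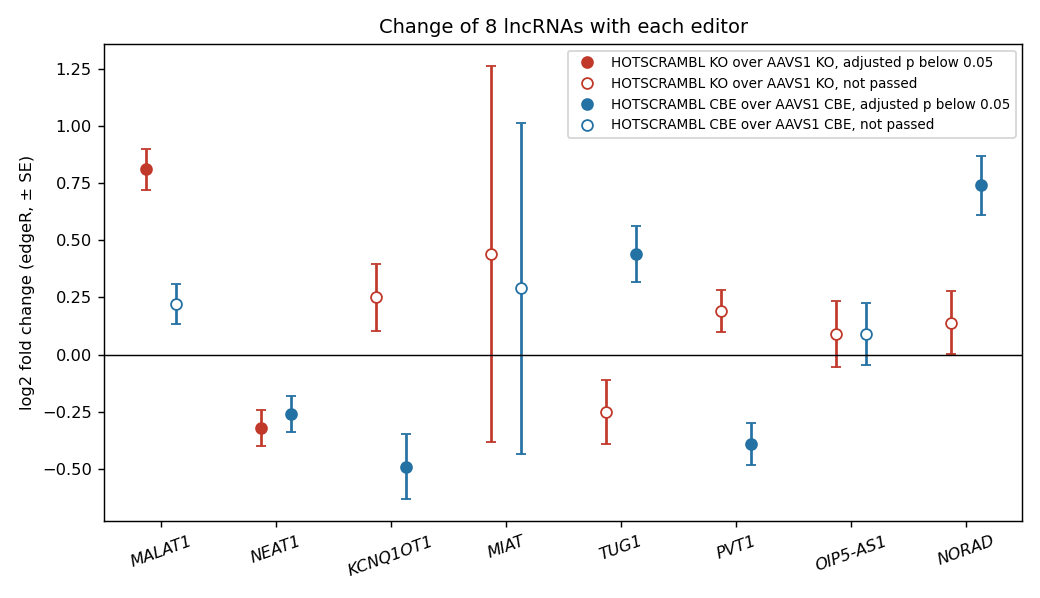
Log2 fold change of HOTSCRAMBL over AAVS1 for each lncRNA with KO (red) and CBE (blue), bars ± SE from edgeR, filled where the adjusted p is below 0.05. MALAT1 is 0.81 with KO and 0.22 with CBE, NEAT1 is -0.32 and -0.26, and TUG1, PVT1 and KCNQ1OT1 lie on opposite sides of 0 for the 2 editors.

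The effects were then tested against each other. The difference, KO minus CBE, passed for 4 of 8 lncRNAs, where 3.19% of all tested genes did (1.74% with a higher and 1.45% with a lower KO effect). It was 0.59 for MALAT1 (standard error 0.125, adjusted p 0.00577 in edgeR), 0.58 for PVT1 (standard error 0.13, adjusted p 0.0094 in edgeR), 0.74 for KCNQ1OT1 (standard error 0.204, adjusted p 0.0413 in edgeR) and -0.69 for TUG1 (standard error 0.187, adjusted p 0.0369 in edgeR). None of these 4 passed without the replicate pairing, where the edgeR adjusted p ran from 0.0647 for MALAT1 to 0.108 for KCNQ1OT1. Of 17 alternatives, the call was kept in 11 for MALAT1, 10 for PVT1, 7 for KCNQ1OT1 and 7 for TUG1. NORAD differed by -0.60 (SE 0.189) and missed the threshold at an edgeR adjusted p of 0.088, while DESeq2 called it (-0.57, adjusted p 0.0027). For NEAT1 the difference was -0.06 (standard error 0.111, adjusted p 0.878 in edgeR).

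Averaged over both editors, 3 of 8 lncRNAs passed, where 12.3% of tested genes did (5.79% higher and 6.51% lower). MALAT1 was higher by 0.52 (standard error 0.0626, adjusted p 8.95e-07 in edgeR), NORAD higher by 0.44 (standard error 0.0945, adjusted p 0.00169 in edgeR), and NEAT1 had a log2 fold change of -0.29 (standard error 0.0554, adjusted p 0.000503 in edgeR). These 3 calls held in 17 of 17 alternatives. NEAT1 was below its AAVS1 partner in 4 of 4 replicate pairs, and MALAT1 and NORAD were above it in 4 of 4.

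MALAT1 and NEAT1 can be compared inside a library, where scaling cancels. The ratio of MALAT1 to NEAT1 counts was 0.473 and 0.421 in AAVS1 KO and 0.444 and 0.429 in AAVS1 CBE. It reached 1.02 and 0.942 in HOTSCRAMBL KO, against 0.64 and 0.577 in HOTSCRAMBL CBE. All 4 HOTSCRAMBL values exceeded all 4 AAVS1 values; this was given as a description and not tested. NEAT1 over NORAD, a nuclear over a cytosolic RNA, moved too: with KO from 12 and 10.3 to 8.16 and 8.06, and with CBE from 12.9 and 13.2 to 7.09 and 6.02. For MALAT1 over NORAD the editors parted, with 5.68 and 4.34 against 8.28 and 7.59 for KO, and 5.75 and 5.66 against 4.54 and 3.48 for CBE.

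**Figure D4:**
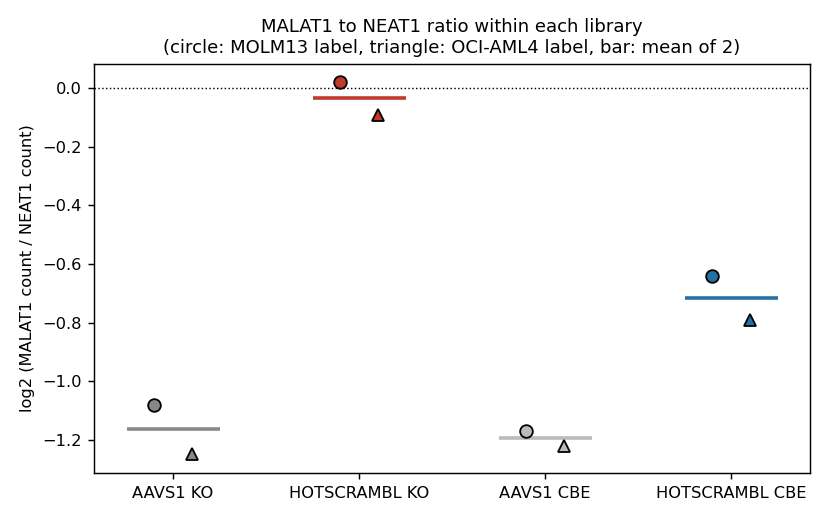
Log2 of the ratio of MALAT1 to NEAT1 counts within each library, by group, with circles for the MOLM13 label, triangles for OCI-AML4 and a bar at the mean. The AAVS1 libraries lie between -1.25 and -1.08, HOTSCRAMBL CBE at -0.64 and -0.79, and HOTSCRAMBL KO at 0.02 and -0.09.

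The 2 control groups served as background. AAVS1 KO against AAVS1 CBE called 0 of 8 lncRNAs and 0% of all tested genes with edgeR, where 918 genes had an unadjusted p below 0.05 and DESeq2 called 33 and limma-voom 2. Among the 8 the difference ran from -0.17 for OIP5-AS1 to 0.23 for NORAD, with an edgeR adjusted p of at least 0.991 for each. Between the labelled lines 0 of 8 passed, where 0.495% of tested genes did, and 2210 genes had an unadjusted p below 0.05. MIAT came nearest: the libraries labelled MOLM13 had 110, 88, 103 and 163 counts and those labelled OCI-AML4 had 10, 41, 41 and 22, without overlap. Its log2 difference was 1.85 (standard error 0.609, adjusted p 0.265 in edgeR), and DESeq2 called it. The replicate pairs of OIP5-AS1 moved in opposite directions with each editor: with KO its 142 and 152 CPM stood against 127 and 185, and with CBE 147 and 185 CPM against 172 and 178.

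The mRNAs of the proteins these lncRNAs work with were read from lists chosen with earlier results of these data known. For this and the later lists, 8.76% of all tested genes were called with KO and 8.83% with CBE. The difference between editors passed for 3.19%. Shares among genes of like level were not computed. Among 15 paraspeckle proteins, 2 were higher and 3 lower with KO (median log2 fold change -0.18), and 5 higher and 1 lower with CBE (median 0.24). HNRNPH3 rose with each editor, by 0.78 and 1.23 (edgeR adjusted p 5.03e-05 and 2.5e-08), with means of 219 ± 8.22 against 375 ± 0.326 CPM for KO and of 214 ± 40 against 498 ± 0.868 CPM for CBE (SD, n = 2). HNRNPA1, another RNA-binding protein of the list, rose by 0.34 with KO and 0.95 with CBE (edgeR adjusted p 0.0483 and 3.58e-07). Its KO call was kept in 7 of 18 alternatives and lost without any 1 of the 8 libraries, without the replicate pairing (edgeR adjusted p 0.137) and without TMM (0.352), while its CBE call was kept in 18 of 18. DAZAP1, EWSR1 and PSPC1 fell with KO, with log2 fold changes of -0.57, -0.43 and -0.42 (edgeR adjusted p 0.000648, 0.00735 and 0.0325), calls kept in 18, 13 and 10 of 18 alternatives; those of EWSR1 and PSPC1 were lost without any 1 of the 4 KO libraries. Without the replicate pairing the paraspeckle genes called were 3 with KO and 2 with CBE.

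The core partners of NEAT1 did not move as a block. NONO had a log2 fold change of -0.02 with KO (edgeR adjusted p 0.965) and rose by 0.46 with CBE (0.00665). SFPQ had 0.10 with KO (edgeR adjusted p 0.517) and rose by 0.30 with CBE (0.00996). SMARCA4, a chromatin remodeller, fell with CBE (-0.33, edgeR adjusted p 0.0226). These 3 CBE calls were lost without the replicate pairing (edgeR adjusted p 0.0692 for NONO, 0.088 for SFPQ and 0.142 for SMARCA4) and without AAVS1 CBE replicate 1 (0.12, 0.327 and 0.49) or HOTSCRAMBL CBE replicate 1 (0.117, 0.202 and 0.409), and those of NONO and SFPQ also without TMM (0.0764 and 0.23). The difference between editors passed for 2 of the 15, HNRNPA1 (-0.61, edgeR adjusted p 0.0216) and EWSR1 (-0.60, edgeR adjusted p 0.0155), and for neither without the pairing (0.0989 and 0.0849).

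Of 12 nuclear speckle proteins, 1 was higher and 6 lower with KO (median log2 fold change -0.35), and 0 were higher and 3 lower with CBE (median -0.07). The shares of all tested genes called were 8.76% with KO and 8.83% with CBE. RBM25, a splicing regulator, fell from 658 ± 146 to 319 ± 55.4 CPM (SD, n = 2) with KO, by 1.04 on the log2 scale (edgeR adjusted p 2.13e-07), and its difference between editors passed (-0.74, edgeR adjusted p 0.00533), a call kept in 10 of 17 alternatives and lost without the replicate pairing. SRRM2, a structural protein of speckles, had log2 fold changes of -0.55 with KO and -0.31 with CBE (edgeR adjusted p 1.06e-05 and 0.00851), the latter lost without the pairing (0.0997) and without HOTSCRAMBL CBE replicate 1 (-0.20, 0.374). PRPF38B, a splicing factor, had -0.83 and -0.60 (edgeR adjusted p 3.74e-05 and 0.00119), and ACIN1 had -0.46 and -0.51 (0.000716 and 0.000204). SRRM1 was the gene that rose with KO, by 0.41 (edgeR adjusted p 0.0205), a call lost without the pairing (0.101), without TMM (0.199) and without any 1 of the 4 KO libraries.

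For the 12 genes of MALAT1 end processing and methylation, which include the RNase P subunits, 2 rose and 0 fell with KO and 1 rose and 0 fell with CBE. All tested genes were called at 8.76% with KO and 8.83% with CBE. POP4, an RNase P subunit, rose with each editor, by 1.18 and 0.62 (edgeR adjusted p 2.59e-05 and 0.0168). The CBE call was kept in 13 of 18 alternatives and lost without TMM (0.48, edgeR adjusted p 0.0714) and without HOTSCRAMBL CBE replicate 1 (0.39, 0.551), and single omissions moved it from 0.39 to 0.79. With KO it went from 65.3 ± 6.53 to 148 ± 1.9 CPM. RPP38, another subunit, rose by 0.76 with KO (edgeR adjusted p 0.0459) and kept that call in 6 of 18 alternatives. METTL16, which binds the MALAT1 triple helix, had log2 fold changes of -0.12 and 0.04 (edgeR adjusted p 0.799 and 0.93). Among 7 partners of NORAD, 0 were called with KO and 1, RBMX, rose with CBE (0.47, edgeR adjusted p 0.00569), and its difference between editors passed (-0.81, edgeR adjusted p 0.00328). The CBE call was kept in 12 of 18 alternatives and lost without any 1 of the 4 CBE libraries and without TMM (0.33, edgeR adjusted p 0.0596), and the difference was kept in 13 of 17. PUM2, a Pumilio protein, had 0.26 and 0.13 (edgeR adjusted p 0.429 and 0.689).

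Genes next to the lncRNAs were listed at 18, of which 15 could be tested. CRYBA4 and CNBD2 had too few counts, and for TALAM1 reads shared with MALAT1 were not counted. With KO 4 rose and 1 fell, where 8.76% of all tested genes were called. With CBE 2 rose and 3 fell, where 8.83% were called. In the imprinted cluster that KCNQ1OT1 is known to silence, PHLDA2 went from 5.27 ± 2.19 to 33.3 ± 12.9 CPM with KO and from 9.53 ± 3.81 to 1.47 ± 0.972 CPM with CBE (SD, n = 2). Its log2 fold changes were 2.65 and -2.52 (edgeR adjusted p 0.000116 and 0.017), and the difference of 5.17 (edgeR adjusted p 0.000198) passed in 17 of 17 alternatives. The CBE call alone was lost in 6 of 18, without any 1 of the 4 CBE libraries (values from -3.84 to -1.81), in limma-voom (adjusted p 0.0858) and in the fit of 4 libraries (0.0942). The KO call was lost without AAVS1 KO replicate 2 (1.91, edgeR adjusted p 0.0924) or HOTSCRAMBL KO replicate 2 (2.24, 0.0546). CDKN1C, a cell cycle inhibitor in the same cluster, had 4 and 70 counts in AAVS1 KO and 290 to 368 in HOTSCRAMBL KO. Its log2 fold change of 3.42 (edgeR adjusted p 0.000642) was 2.41 and lost its call without AAVS1 KO replicate 2 (0.106), and was 2.67 and not called without HOTSCRAMBL KO replicate 2 (0.112). In the CBE groups it had 2 counts in each AAVS1 library and 6 to 12 in HOTSCRAMBL, too few to read.

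KCNQ1, the host gene, fell with CBE from 22.9 ± 2.13 to 9.37 ± 0.946 CPM (SD, n = 2), with a log2 fold change of -1.30 (edgeR adjusted p 0.0258) that was -0.86 and not called without AAVS1 CBE replicate 1 (0.491), a call kept in 12 of 18 alternatives. With KO it had -0.49 (edgeR adjusted p 0.494), and 0.23 without AAVS1 KO replicate 2. KCNQ1OT1 over the same contrast had fallen by 0.49, and because strand was not used the host and its antisense RNA cannot be fully separated. SLC22A18 was not called with either editor (0.39 and -0.68, edgeR adjusted p 0.702 and 0.378).

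MYC, the transcription factor gene upstream of PVT1, rose with each editor, from 387 ± 76.1 to 697 ± 38.5 CPM with KO and from 383 ± 35.1 to 714 ± 49 CPM with CBE (SD, n = 2). Its log2 fold changes were 0.86 and 0.90 (edgeR adjusted p 7e-07 and 2.85e-07), and both calls held in 18 of 18 alternatives. PVT1 had 0.19 and -0.39 in the same comparisons. CHP1, beside OIP5-AS1, rose by 1.52 and 0.87 (edgeR adjusted p 5.62e-07 and 0.00119), and MORC2, beside TUG1, had -1.16 and -0.91 (6.02e-05 and 0.000372). Their CBE calls were lost without AAVS1 CBE replicate 1 (edgeR adjusted p 0.159 and 0.114) or HOTSCRAMBL CBE replicate 1 (0.104 and 0.106). LTBP3 and FRMD8, near MALAT1 and NEAT1, were not called with either editor.

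Other lncRNAs and cytosolic mRNAs give the setting. Of 19 further lncRNAs tested from a list of 20, 1 rose and 1 fell with each editor (medians 0.29 with KO and 0.13 with CBE). This is near the shares of all tested genes called, 8.76% with KO and 8.83% with CBE. LINC-PINT rose with KO (0.74, edgeR adjusted p 0.00148), FTX with CBE (0.41, edgeR adjusted p 0.0319), and MIR142HG, host of a blood-cell microRNA, fell with both (-1.21 and -0.76, edgeR adjusted p 2.07e-07 and 7.02e-05). Both MIR142HG calls were lost without the replicate pairing (edgeR adjusted p 0.479 and 0.634). The FTX call was kept in 9 of 18 alternatives and lost without the pairing (0.101), without TMM (0.195) and without any 1 of the 4 CBE libraries, and that of LINC-PINT was lost without either AAVS1 KO library or HOTSCRAMBL KO replicate 1. Of 15 abundant cytosolic mRNAs, 11 rose with KO and 15 with CBE, and 0 fell, with medians of 0.86 and 1.03. FTL, a ferritin chain, rose by 1.74 and 1.02 (edgeR adjusted p 9.52e-14 and 2.56e-09), and GAPDH, a glycolytic enzyme, by 1.69 and 1.72 (6.12e-11 and 6.03e-11). These mRNAs, and the ribosomal protein and mitochondrial shares, rose in the same libraries in which MALAT1 and NORAD were higher, and their part in those results was not tested.

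**Figure D5:**
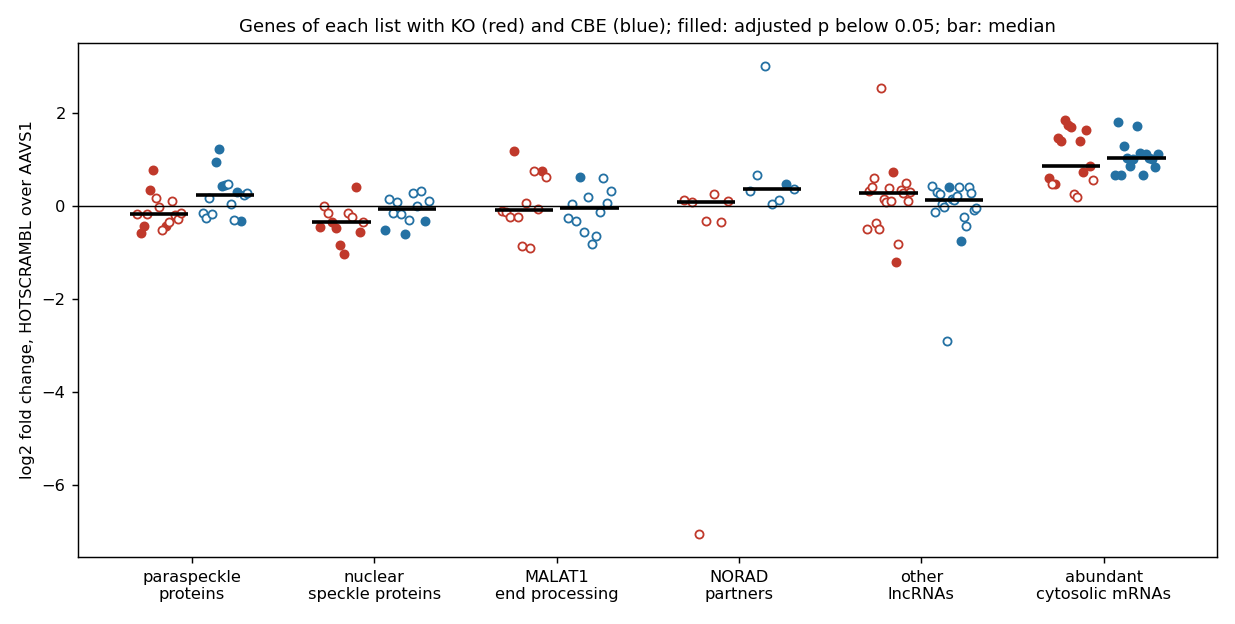
Log2 fold change of every tested gene of 6 lists with KO (red) and CBE (blue), filled where the edgeR adjusted p is below 0.05, with a bar at the list's median. The cytosolic mRNAs lie above 0 with medians of 0.86 and 1.03, nuclear speckle proteins have medians of -0.35 and -0.07, and the lone points beyond -6 and near 3 are NANOS3, which had 20 counts or fewer in every library.

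Genes that followed MALAT1 and NEAT1 most closely were listed by the Pearson correlation of log2 CPM over the 8 libraries among 12022 genes above the median level. For MALAT1 they were ODR4 (r = 0.987), PACSIN2 (0.985) and CYP27A1 (0.985). For NEAT1 they were CCNL2 (0.991), STK25 (0.987) and CD37 (0.98). These values describe 8 libraries that fall into 4 groups and share their scaling, and the top of a ranking over so many genes is high by selection, so no p is given.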

How the data were processed

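Counts per gene from 8 ChIRP libraries were used. Per the file headers, the authors made the deposited whole-number counts with featureCounts 2.0.6 on sorted alignments and the Ensembl 112 annotation of GRCh38, without normalisation and with no strand, multi-mapping or multi-overlap option. Paired reads were entered separately: 71.8% to 74.9% of values from 1 to 20 were even in each library. Removal of duplicates is not given in the sources used here. Symbols matched 62541 of 63140 identifiers (99.05%), 2 broken records were rejoined, and 0 columns of other samples were present.

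Genes were tested with edgeR 4.0.16 (R 4.3.3), robust quasi-likelihood F-test in its bias-adjusted form, TMM scaling, filterByExpr at a minimum count of 10, terms for 4 groups and the labelled line (3 residual degrees of freedom), all 8 libraries, Benjamini-Hochberg adjustment over 24057 genes, threshold 0.05. The line named in the titles was used to pair the replicates. Deviations from group means correlated between groups at only 0.00851 to 0.0245, so little difference between labelled lines was shared by the groups. Replicate agreement is therefore not shown to be agreement between 2 distinct lines. The common biological coefficient of variation was 0.708. DESeq2 1.42.0, limma-voom 3.58.1, other scalings and filters, a model without the line term, fits of 4 libraries and each library left out were alternatives; the older edgeR fit was added after seeing the data. The scripts were tested on simulated data, with 200 genes at or above the median level changed in HOTSCRAMBL KO. Of these, 46% of the 2-fold and 76% of the 4-fold changes were recovered, and 3 unchanged genes were called.

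The lncRNAs and the lists were chosen with earlier results of these data known. Named were the 8 lncRNAs in every comparison, per list and comparison up to 3 called genes with the smallest p in each direction, genes with a defining role (some are not reported here), and the 3 genes most like MALAT1 and NEAT1. P-values rest on the spread left after the terms for group and labelled line, with 3 residual degrees of freedom. In edgeR each gene's spread was also drawn toward a trend over all tested genes. Small p-values therefore do not rest on the 2 libraries per group alone. The 2 libraries of each group differ in labelled line. Without molecular identifiers reads are not independent molecules.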

Additional observations from a re-analysis of the deposited data

Results flagged for a closer look

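In a test of the difference itself (edgeR, KO effect minus CBE effect, log2 scale), 3.19% of all tested genes, of every level, passed. Among the 8 lncRNAs the effect of HOTSCRAMBL guides differed between the editors for 4. These calls were kept in 7 to 11 of 17 alternatives, and none held without the replicate pairing. MALAT1 differed by 0.59, having a log2 fold change of 0.81 with KO and 0.22 with CBE, and it was above the control in 2 of 2 pairs with each. KCNQ1OT1 differed by 0.74, with 0.25 with KO and -0.49 with CBE. PVT1 differed by 0.58, with 0.19 with KO and -0.39 with CBE. TUG1 differed by -0.69, with -0.25 with KO and 0.44 with CBE. For KCNQ1OT1, PVT1 and TUG1 both replicate pairs of one editor moved against both pairs of the other, but the KO effect alone passed the edgeR threshold for none of these 3 (DESeq2 called that of PVT1, at 0.21 with adjusted p 0.0496).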

How the results depend on the processing

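With no replicate block (no term for the labelled line) the lncRNAs called were 1 with KO, 2 with CBE and 0 for the difference between editors, and 3 for the average as before, and genes called were 1736, 1641, 503 and 2630. A fit of only the 4 libraries of a contrast called 1 lncRNA with KO and 1 with CBE (780 and 677 genes). Calls of lncRNAs were also gained: DESeq2 called MIAT, hence 1 lncRNA, between labelled lines, PVT1 with KO (0.21, adjusted p 0.0496) and NORAD for the difference (-0.57, 0.0027), limma-voom called MALAT1 with CBE (0.24, 0.00184), and edgeR without TMM called PVT1 on average (-0.25, 0.00947). DESeq2 called 4208, 3438, 4908, 2243, 33 and 769 genes for KO, CBE, average, difference, controls and lines, against 2108, 2124, 2958, 767, 0 and 119. Leaving out 1 library gave 1 to 2 lncRNAs with KO, 1 to 5 with CBE and 0 to 1 for the difference, and 677 to 1674, 586 to 1885, 1639 to 2182, 226 to 372, 0 and 26 to 65 genes. The legacy fit gave 2520, 2091, 3202, 1068, 0 and 193 genes. Without TMM the median over all tested genes was -0.17 with KO, -0.15 with CBE and -0.18 on average, so directions are relative to TMM. No call of the 8 lncRNAs reversed; signs that changed all belong to values that had not passed. With DESeq2, NONO was 0.01 with KO, MIAT was -0.14 with CBE, OIP5-AS1 was 0.02 for the difference and MIAT was -0.53 between controls. With limma-voom, OIP5-AS1 was 0.0035 for the difference and MIAT was -0.01 between controls. With DESeq2 size factors, NONO was 0.01 with KO and OIP5-AS1 was 0.03 for the difference. Without TMM, OIP5-AS1 was -0.08 with KO, NORAD was -0.02 with KO, SFPQ was -0.06 with KO, OIP5-AS1 was -0.05 with CBE, PSPC1 was -0.09 with CBE, METTL16 was -0.09 with CBE, PUM2 was -0.0037 with CBE, TUG1 was -0.05 on average and OIP5-AS1 was -0.06 on average. With a minimum count of 30, NONO was 0.01 with KO and OIP5-AS1 was 0.02 for the difference. With no replicate block, OIP5-AS1 was 0.02 for the difference. With library sizes free of mitochondrial and ribosomal protein genes, NONO was 0.0016 with KO and OIP5-AS1 was 0.02 for the difference. With the legacy fit, MIAT was -0.14 with CBE and MIAT was -0.56 between controls. Leaving out 1 library, the difference between editors ran from -0.22 to 0.17 for OIP5-AS1 and -0.14 to 1.71 for MIAT. Between controls the omissions gave -0.05 to 0.11 for MALAT1, -0.10 to 0.03 for KCNQ1OT1, -1.50 to 0.35 for MIAT, -0.16 to 0.03 for PVT1, -0.05 to 0.04 for NEAT1 and -0.20 to 0.0031 for TUG1. Between lines they gave -0.06 to 0.03 for TUG1 and -0.0011 to 0.07 for KCNQ1OT1. With KO, omitting single libraries gave -0.13 to 0.25 for OIP5-AS1, -0.08 to 0.06 for NONO, -0.30 to 0.06 for METTL16 and -0.95 to 0.23 for KCNQ1. On average it gave -0.02 to 0.17 for OIP5-AS1 and -0.04 to 1.15 for MIAT. For CBE, omitting single libraries gave -0.55 to 0.52 for MIAT, -0.03 to 0.11 for PSPC1, -0.03 to 0.30 for PUM2, -0.05 to 0.22 for OIP5-AS1 and -0.08 to 0.14 for METTL16.

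Only 2 libraries per group stand behind each value, and 10 to 163 counts behind MIAT. The lncRNAs that missed the threshold are not shown to be alike between groups. MALAT1 rests on 1703 of 10434 exon bases. The causes of the changes with the settings were not tested.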

Other observations

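The same ranking by correlation was made for the other 6 lncRNAs. RCN3 was among the 3 most like KCNQ1OT1 (r = 0.984) and the 3 most like PVT1 (r = 0.981). FTX, itself a nuclear lncRNA, was the gene most like NORAD (r = 0.973). Its call with CBE was kept in 9 of 18 alternatives, and that of NORAD in 18 of 18. PHGDH, an enzyme of serine synthesis, was the gene most like TUG1 (r = 0.988). Each correlation is over 8 libraries and 12022 genes, and describes these libraries only.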
